A study of Mus musculus with 8 samples.

Results

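The nuclear genes for subunits of the oxidative phosphorylation complexes were examined in single-cell RNA profiles of mouse bone marrow. Members were chosen by name: symbols beginning with Nduf (without the assembly factors Ndufaf), the symbols Sdha, Sdhb, Sdhc and Sdhd, and symbols beginning with Uqcr, Cox4 to Cox8 or Atp5, without pseudogenes. The rule found 85 of the 31054 features in the count matrices: 38 in complex I, 4 in complex II, 8 in complex III, 18 in complex IV and 17 in complex V. The symbol Atp5o stood for 2 of these features, and a feature below is a gene identifier.

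The study asked what Gli1, which carries hedgehog signals to DNA, does in blood-forming cells when JAK2V617F, a constantly active form of the kinase JAK2, drives a myeloproliferative neoplasm with marrow scarring. Donors were 8 weeks old and either wild type or lacking Gli1 (Gli1-/-, here Gli1 knockout). Their marrow cells were transduced with a retrovirus carrying JAK2V617F or unmutated JAK2 (JAK2WT), kept in culture for 48 hours and transplanted into female B6.SJL recipients aged 8 to 10 weeks that had received 10.5 Gy of radiation. Marrow was taken on day 112, and 3 mice were pooled in each condition. All 4 conditions thus share irradiation, transplantation and a retrovirus with JAK2, and no untransduced marrow was among them. Before sequencing, cells carrying CD11b, GR1, TER119, B220 or CD3 were depleted with magnetic beads, and viable lineage-negative GFP+ and GFP- cells were sorted. Values are given throughout in 1 order of the 4 groups: first both wild type libraries, JAK2WT before JAK2V617F, then both knockout libraries, again JAK2WT before JAK2V617F. Each group is 1 library, so no difference between groups has a replicate check or a test, and intervals and standard errors cover counting error only.

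Oxidative phosphorylation makes most of the ATP of respiring cells. Complex I takes electrons from NADH and complex II takes them from succinate. Both pass them through ubiquinone to complex III and by cytochrome c to complex IV, which reduces oxygen, and the proton gradient built on the way drives complex V, the ATP synthase. Complex II is made by nuclear genes alone, whereas the other complexes join nuclear subunits with a few subunits encoded in mitochondrial DNA. Long-term stem cells are known for a low reliance on respiration, and developing red cells for a high demand on mitochondria. Some complex IV subunits exist as paired isoforms of different tissues.

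A barcode counted as a cell if it had 500 genes or more, 1000 or more unique molecular identifiers (UMIs, each standing for 1 captured transcript) and less than 10% of them mitochondrial. This left 7987, 3602, 3999 and 6490 cells with medians of 4187, 13149.5, 17277 and 13785 UMIs, so the wild type JAK2WT library was the shallowest per cell. Pairs of libraries shared 5 to 18 kept barcodes, at most 0.278% of the smaller set. Gli1 gave 0, 2, 5 and 5 UMIs, too few to check the genotype, and the part of the gene removed is not given in the sources used here. Xist, expressed from the inactive X of females, gave 87185, 38864, 1109 and 338 UMIs, and 4 Y-linked genes together gave 1, 1, 9667 and 13015, so the sex of the blood cells differed between the genotypes. GFP gave 47, 103, 7 and 74 UMIs, too few to split transduced from untransduced cells. Cells were clustered without the subunit genes, and clusters that resembled a type by its markers carry that type's name with "-like" understood. Clusters that missed any of the naming limits given under processing are numbered, though some of them scored on the markers of a type.

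The subunit transcripts together made up 2.82%, 2.99%, 2.42% and 2.69% of all UMIs in the 4 libraries. As counts scaled to 1000000 UMIs (CPM) these are 28181, 29911, 24191 and 26929. Because the mix of cell types differed between libraries, levels were also standardised: the CPM of 4 classes with at least 100 cells in every library were averaged with the same weights. These matched classes were haematopoietic stem cells and multipotent progenitors (HSC/MPP), granulocyte-monocyte progenitors and promyelocytes, innate lymphoid cells, and the unnamed cluster 2, led by Myc, Cpa3, Ccl9, Ung and Cd34. Standardised sums were 27575, 26482, 25074 and 26644 CPM, a narrower range than before. The library of Gli1 knockout with JAK2WT was lowest on both scales. Complex I contributed 9173, 8569, 8366 and 8773 standardised CPM and complex V 8061, 8083, 7753 and 8120. Complex IV contributed 6819, 6402, 5809 and 6319, and complex III 3085, 2938, 2680 and 2948. Complex II, with 4 genes, contributed 438, 490, 466 and 483.

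The 3' tags count captured molecules with no division by length, and levels of different genes are compared here on that scale; reads shared with pseudogene copies may go uncounted, so the order of genes is that of counted molecules only. The most abundant member of complex IV was Cox4i1, at standardised levels of 1115, 1043, 918 and 958 CPM. In complex I it was Ndufa4 at 1113, 961, 985 and 1071 CPM; despite its name, its protein is now counted with complex IV. Atp5g2, 1 of 3 genes for the proton-carrying c subunit, led complex V at 898, 971, 912 and 995 CPM. Uqcrh, the hinge protein that helps cytochrome c dock on complex III, stood at 771, 631, 618 and 651 CPM. Sdhb, the iron-sulfur subunit, led complex II at 131, 161, 139 and 167 CPM. The leader of complex II thus had the lowest level of the 5 in each library.

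Erythroid-like cells had the highest summed subunit level of any named class: 34529 CPM ± 599 (SD, n = 4 libraries), from 34127 to 35417. Monocyte-like cells followed at 31046 ± 2167 (n = 3) and granulocyte progenitors at 30329 ± 1128 (n = 4). HSC/MPP stood lower at 24090 ± 1046 (n = 4), between cytotoxic T and NK cells at 24161 ± 2007 (n = 3) and T cells at 23979 ± 3657 (n = 3), neighbours whose ranges over libraries overlapped. Innate lymphoid cells stood at 20455 ± 1706 (n = 4), neutrophils at 18109 ± 2434 (n = 3) and plasma cells at 9653 ± 1895 (n = 3). The libraries in this spread differ in genotype and transduction, so the SD is not that of replicates. The erythroid-like cells numbered 82, 1369, 51 and 60, and cluster 12, led by haemoglobin genes, held 24, 648, 10 and 18 of them. Haemoglobin genes also led cluster 27, with 2, 140, 2 and 3 cells, and cluster 35, with 0, 8, 0 and 10. In plasma cells immunoglobulin transcripts took much of the total. With mitochondrial, ribosomal protein, haemoglobin and immunoglobulin genes left out of the total, plasma cells stood at 34431 CPM and neutrophils were lowest at 21065, while erythroid-like cells were again highest at 51791 and HSC/MPP stood at 36222.

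**Figure D1:**
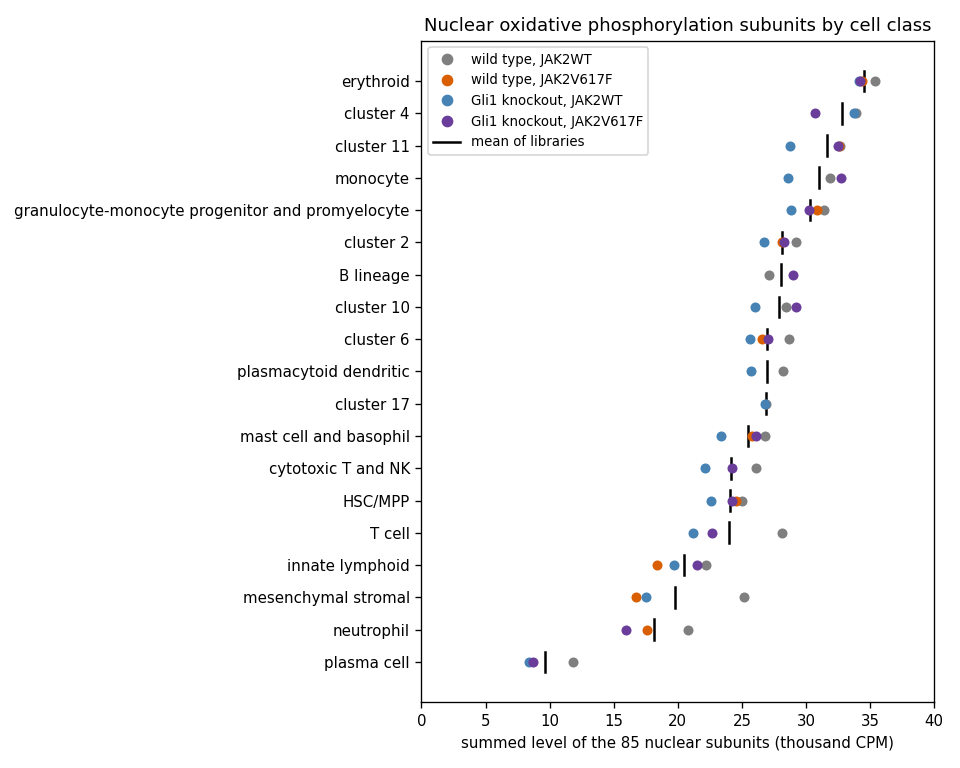
Summed level of the 85 nuclear subunits (horizontal axis, CPM divided by 1000) in each cell class with at least 50 cells in 2 or more libraries; points are libraries, black bars their mean. Erythroid-like cells lie highest, at 34127 to 35417 CPM, and plasma cells lowest, at a mean of 9653 CPM.

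The difference between erythroid-like cells and HSC/MPP ran through most subunits. All 4 erythroid values lay above all 4 HSC/MPP values for 55 of 77 measured members (at least 10 CPM in either class mean), against 23.2% of all genes measured; for 2 members they lay below, against 31.1%. The 2 below were Atp5g2 and Cox7a2l, the latter a homologue of Cox7a2 known for joining complexes III and IV into supercomplexes. Cox8a, a small complex IV subunit, reached 1041, 1151, 1074 and 1220 CPM in erythroid-like cells. Uqcr10, a small complex III subunit, had 601, 602, 543 and 581 CPM there and a mean of 297.6 in HSC/MPP. Ndufs1, the large iron-sulfur subunit of complex I, had 88.4, 91.4, 84.4 and 110 CPM in erythroid-like cells against a mean of 50.9 in HSC/MPP. Cox4i1 had 1414, 1477, 1342 and 1370 CPM. Of the 77 members that reached 50 CPM in any class, a set that differs slightly from the one just counted, 36 had their highest class mean in erythroid-like cells. Another 17 had it in cluster 4, whose cells had a mean median of 1360.5 UMIs per cell over libraries. Cluster 4 was led by AY036118, Mt3 and Acta1, and its subunits encoded in mitochondrial DNA summed to between 3779 and 29079 CPM over 3 libraries. The share of all genes that peak in each class was not taken.

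Cox7a2l ran against most members. It had 187, 168, 210 and 171 CPM in erythroid-like cells and 333, 320, 338 and 305 CPM in HSC/MPP, so the ranges did not overlap. Its relative Cox7a2 did the opposite, with 679, 673, 652 and 674 CPM in erythroid-like cells and 355, 360, 316 and 353 in HSC/MPP. Among the c subunit genes, which encode the same mature protein, Atp5g1 averaged 1134 CPM in erythroid-like cells, its highest class, and Atp5g3 averaged 552 there, also its highest. Atp5g2 instead peaked at a mean of 1209 CPM in cluster 6, led by Pf4 and histone genes.

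Granulocyte progenitors also carried more than HSC/MPP: 44 of 77 members lay above in all 4 libraries, against 13.6% of genes, and 2 below, Cox7a2l and Atp5s, against 32.1%. That class joined clusters 3 and 5; cluster 3 held 344, 289, 278 and 317 cells and cluster 5 held 160, 236, 378 and 356, so the larger one differed between genotypes. In innate lymphoid cells 1 member lay above HSC/MPP, against 18.8% of genes, and 23 lay below, against 18.8%. The 23 included Cox5a, Cox5b, Ndufa4 and the catalytic Atp5b. On the total of all UMIs, the members that varied least over classes were the complex I subunits Ndufa1, with a 1.88-fold range of class means, Ndufa13 with 2.06-fold and Ndufv3 with 2.20-fold. This order depended on the total: with the 4 gene groups named above left out of it, a choice made after seeing the data, the ranges were 3.90-fold, 2.23-fold and 1.98-fold, and the complex I subunit Ndufb7 varied least at 1.81-fold.

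The widest range over classes belonged to Cox6a2, the isoform of COX6A known from heart and skeletal muscle. In plasmacytoid dendritic-like cells it had 867 CPM (95% exact Poisson interval 840 to 894) in wild type with JAK2WT and 392 (368 to 417) in Gli1 knockout with JAK2WT, the 2 libraries with at least 50 such cells. These joined cluster 19, with 323 and 119 cells in those libraries, and cluster 23, with 271 and 28, so the mix differed. There it made up 74.4% and 62.3% of Cox6a UMIs, exceeding Cox6a1, the isoform of most tissues, at 299 and 237 CPM. Cluster 10, which shares the leading genes Irf8, Dntt and Runx2 with part of the dendritic-like cells, had 453 CPM of Cox6a2 in wild type with JAK2WT and 104 and 93.8 CPM in the knockout libraries with JAK2WT and JAK2V617F. Erythroid-like cells had 4.70, 0.198, 1.30 and 0 CPM, from 6, 4, 1 and 0 UMIs, where 0 UMIs allow up to 3.09 CPM by the exact Poisson interval. In wild type with JAK2WT, the library with most dendritic-like cells, cluster 1, of B lineage genes and found almost only there, had 126 CPM, and the other classes had up to 59.3 CPM (cluster 4); whether free RNA gave those UMIs was not tested. The sum over all kept cells was 7813, 172, 2219 and 980 UMIs. Plasmacytoid dendritic-like cells numbered 594, 6, 147 and 25, and cluster 10 held 418, 6, 289 and 73 cells. The part of cell numbers in these sums was not tested.

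Cox6b2, the isoform of COX6B known from testis, ranged 69.6-fold, from plasma cells at a mean of 3.29 CPM to erythroid-like cells at 229. On the reduced total the same classes marked the ends, and the range was 30.7-fold. Erythroid-like cells had 268, 227, 258 and 164 CPM of it, HSC/MPP 77.4, 76.2, 58.5 and 60.5, and innate lymphoid cells 12.4, 17.6, 12.9 and 15.4, 3 sets that did not overlap. It formed 27.0%, 25.2%, 28.1% and 19.8% of Cox6b UMIs in erythroid-like cells. Cox6b1, the isoform of most tissues, had 725, 674, 662 and 663 CPM there and 466, 454, 405 and 444 in HSC/MPP. Cox6a1 had 567, 485, 441 and 483 CPM in erythroid-like cells and 174, 142, 127 and 130 in HSC/MPP, again without overlap.

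**Figure D2:**
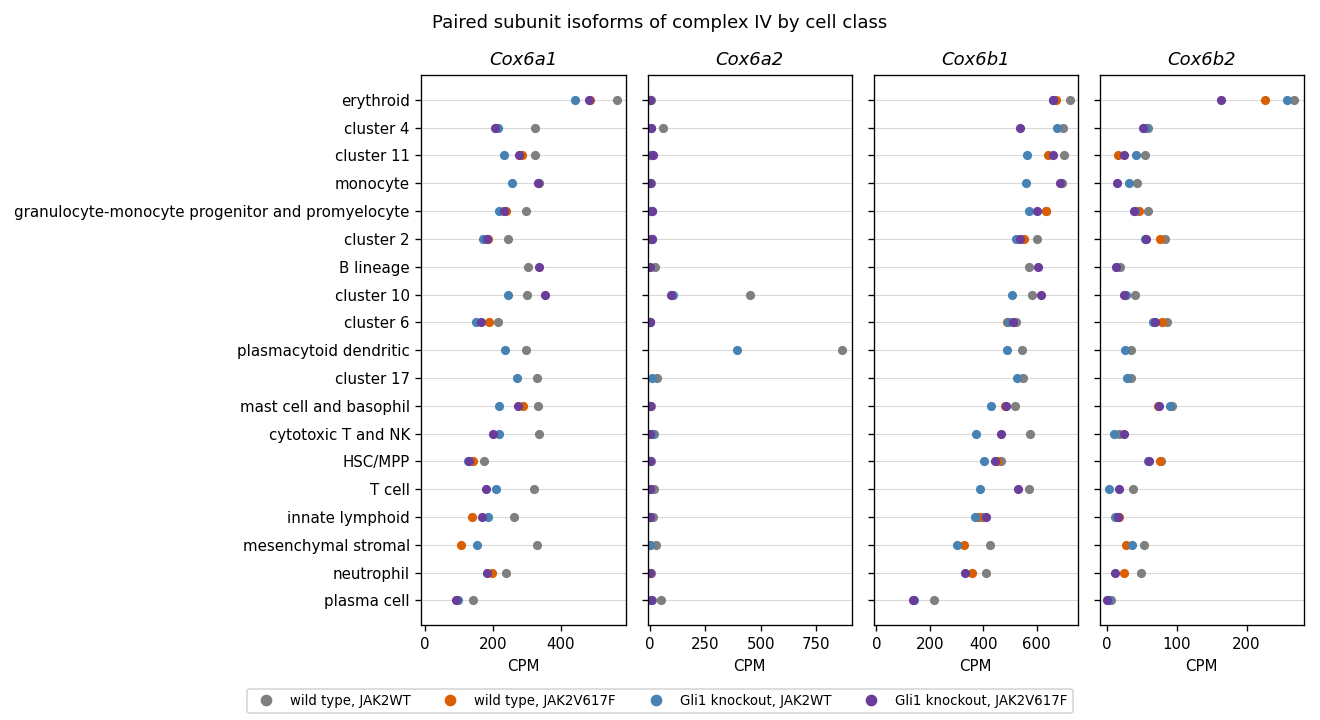
CPM of Cox6a1, Cox6a2, Cox6b1 and Cox6b2 (horizontal axes, separate scales) by cell class; points are libraries. Cox6a2 stands out in plasmacytoid dendritic-like cells at 392 and 867 CPM, and Cox6b2 in erythroid-like cells at 164 to 268 CPM.

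The promoters of 3 of these isoform genes are shown because the isoforms took different shares of their families in the cell classes, together with that of Atp5k, a subunit among the lowest in the comparisons below. Each is the 250 bases before the RefSeq start of the gene (GRCm38.p6, minus strand, 5′ to 3′), with matches to the searched motifs in capitals: GCGCATGCG of NRF1, CCGGAAG of ETS factors, AAGATGGCG of YY1 and AGATAA of GATA factors, on either strand. The GATA motif was added after the erythroid values had been seen. Cox6a2 had no entry in the table.
Cox6a1, chr5:115348959-115349208: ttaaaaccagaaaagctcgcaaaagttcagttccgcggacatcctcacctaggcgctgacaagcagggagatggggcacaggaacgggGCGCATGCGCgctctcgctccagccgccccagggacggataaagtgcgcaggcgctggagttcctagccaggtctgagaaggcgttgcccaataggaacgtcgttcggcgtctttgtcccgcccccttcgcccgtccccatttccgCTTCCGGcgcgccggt
Cox6b1, chr7:30626115-30626364: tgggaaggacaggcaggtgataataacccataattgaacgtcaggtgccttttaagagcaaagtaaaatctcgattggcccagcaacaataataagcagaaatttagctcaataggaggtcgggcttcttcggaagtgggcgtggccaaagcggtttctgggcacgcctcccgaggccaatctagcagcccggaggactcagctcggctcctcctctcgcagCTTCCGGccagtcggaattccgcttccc
Cox6b2, chr7:4753095-4753344: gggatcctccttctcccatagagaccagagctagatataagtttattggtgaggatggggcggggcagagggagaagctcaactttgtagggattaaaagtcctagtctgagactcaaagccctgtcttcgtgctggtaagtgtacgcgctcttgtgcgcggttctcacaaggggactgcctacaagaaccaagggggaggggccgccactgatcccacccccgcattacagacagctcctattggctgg
Atp5k, chr5:108434400-108434649: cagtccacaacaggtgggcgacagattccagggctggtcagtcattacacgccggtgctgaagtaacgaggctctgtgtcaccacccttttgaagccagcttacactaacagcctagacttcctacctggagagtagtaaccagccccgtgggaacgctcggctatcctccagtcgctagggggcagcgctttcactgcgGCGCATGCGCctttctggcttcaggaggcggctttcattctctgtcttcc
The Cox6a1 window holds overlapping NRF1 matches on the 2 strands, starting 162 and 161 bases before the start, and an ETS match. The Cox6b1 window holds an ETS match, the Atp5k window overlapping NRF1 matches, and the Cox6b2 window none of the 4 motifs; Atp5k has an ETS match too, in the 50 bases after its start. Over windows of 300 bases (250 before to 50 after the start), 69 of the 84 symbols had an entry. NRF1 letters were in 11.6% of them against 2.61% of 17492 coding genes, ETS letters in 23.2% against 12.9%, YY1 letters in 10.1% against 2.14% and GATA letters in 8.70% against 11.2%. A match describes letters, not a bound site.

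The other isoform genes were close to absent from the libraries as a whole. By class mean, Ndufa4l2 reached 26.1 CPM and Cox4i2 14.8 CPM in mesenchymal stromal-like cells, and Cox4i2 had 12.0 CPM in plasma cells. Ndufa4l2, a relative of Ndufa4 known from hypoxia, gave 10, 13, 30 and 10 UMIs in all kept cells; mesenchymal stromal-like cells held 2, 11 and 8 of them in the first 3 libraries. Cox4i2, the hypoxia-linked partner of Cox4i1, gave 145, 160, 202 and 637 UMIs. Cox7a1, the muscle isoform, gave 132, 48, 59 and 174 UMIs. Cox8b gave 1, 0, 0 and 1 UMIs, Cox7b2 and Cox8c gave 0 in each library, and the other Atp5o identifier gave 0, 0, 0 and 1. These 7 features and Cox6a2, below 10 CPM after standardisation, are the 8 members that the comparisons between libraries leave out; 77 were measured in each.

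The comparison of JAK2V617F with JAK2WT in wild type marrow asked what the active kinase does when Gli1 is intact. Subunits moved in both directions around a median log2 ratio of -0.05, against 0.05 for all 8307 measured genes. A ratio was counted as higher from 25% up and as lower from 20% down, both on levels with 10 CPM added. Of 77 members, 8 were higher by this rule, against 19.4% of genes, and 6 lower, against 13.2%, so the shares lay at or under the background. Uqcrc2, a core protein of complex III, had 130, 215, 193 and 226 standardised CPM, and its log2 ratio in this comparison was 0.68 (counting SE 0.05). Ndufa9, an accessory subunit, had 62.1, 87.9, 78.7 and 87.7 CPM and a ratio of 0.44 (SE 0.07). For both genes the wild type JAK2WT library was lowest.

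The lowest ratios were those of Ndufa3, Atp5k and Atp5e. Ndufa3, a small accessory subunit, had 257, 176, 189 and 221 CPM and a log2 ratio of -0.52 (SE 0.04). Atp5k, the e subunit that helps ATP synthase form dimers, had 251, 173, 188 and 198 CPM and a ratio of -0.51 (SE 0.04). Atp5e, the epsilon subunit of the central stalk, had 1022, 768, 801 and 844 CPM and a ratio of -0.41 (SE 0.02). Here the wild type JAK2WT library was highest in all 3 genes. Each of these ratios had the same sign in 4 of 4 matched classes, other than that of Ndufa9 in 3 of 4.

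Complex medians in this comparison were -0.05, 0.12, -0.09, -0.10 and -0.00 for complexes I to V. The median over all members was -0.04 in HSC/MPP, 0.01 in granulocyte progenitors, -0.22 in innate lymphoid cells and -0.05 in cluster 2. Without standardisation it was 0.11, and 20 members were then higher. The share of all genes was not taken on that scale, so this count has no background. Wild type with JAK2V617F held 1369 of the erythroid-like cells, and the part of cell mix in the shift was not tested.

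In Gli1 knockout marrow, JAK2V617F against JAK2WT gave a small shift that most members shared. The median was 0.08 against 0.00 for all genes, and 63 of 77 ratios were above 0, against 4065 of 8097 genes. Mitochondrial ribosomal proteins had 72 of 77 above 0 and cytosolic ones 36 of 81, so the shift was not particular to the subunits. None passed the limit in either direction, against 1.19% of genes higher and 1.98% lower. Cox7b, a small complex IV subunit, had 362, 303, 248 and 296 CPM and a ratio of 0.25 (SE 0.02). Sdhb had a ratio of 0.24 (SE 0.03) and Cox8a, at 877, 912, 758 and 899 CPM, one of 0.24 (SE 0.01). The lowest were Sdha at -0.17 (SE 0.04), Ndufa6, an accessory subunit with 241, 199, 228 and 202 CPM, at -0.17 (SE 0.03), and Atp5h, the d subunit of the peripheral stalk with 738, 589, 614 and 567 CPM, at -0.11 (SE 0.02). Complex III was above 0 in 8 of 8 members, with a median of 0.14. The medians in the matched classes were 0.10, 0.06, 0.11 and 0.08. With each cell thinned to 1000 UMIs, the median over members was 0.05.

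Gli1 knockout against wild type, both with JAK2V617F, left the subunits nearly level, with a median of -0.00 against -0.01 for all genes. None of the 77 passed the limit, against 1.34% of genes higher and 2.23% lower. Ndufa3 was highest at 0.31 (SE 0.03), followed by Atp5k at 0.19 (SE 0.03) and Ndufa4 at 0.16 (SE 0.01). Cox6b2 was lowest, with 63.1, 57.6, 45.5 and 45.8 CPM and a ratio of -0.28 (SE 0.05). Ndufv1, the subunit that oxidises NADH, had 79.6, 107, 89.1 and 94.6 CPM and a ratio of -0.16 (SE 0.04), and Atp5b one of -0.14 (SE 0.02). Summed over all kept cells without standardisation, 16 members were lower and the median was -0.13. No share of all genes was taken on that scale to set beside the 16. The erythroid-like cells of these libraries numbered 1369 and 60, and the part of cell mix was not tested.

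With JAK2WT, Gli1 knockout against wild type gave the lowest median of the 4 comparisons, -0.17 against 0.04 for all genes. Of 77 members, 13 were lower, against 7.67% of genes, and 3 higher, against 13%. Cox7b was lowest at -0.53 (SE 0.03). Cox6a1, with 243, 183, 174 and 180 CPM, had a ratio of -0.45 (SE 0.04) and Ndufa3 one of -0.42 (SE 0.04). Uqcrc2 at 0.53 (SE 0.05) and Atp5b at 0.37 (SE 0.03) were among the 3 higher ones; Atp5b, the catalytic beta subunit of ATP synthase, had 461, 629, 598 and 569 CPM. Complex medians were -0.17, 0.06, -0.24, -0.20 and -0.01. This comparison and that of JAK2V617F in wild type share the wild type JAK2WT library, so their values are not independent of each other. With cells thinned to 1000 UMIs the median was -0.09.

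**Figure D3:**
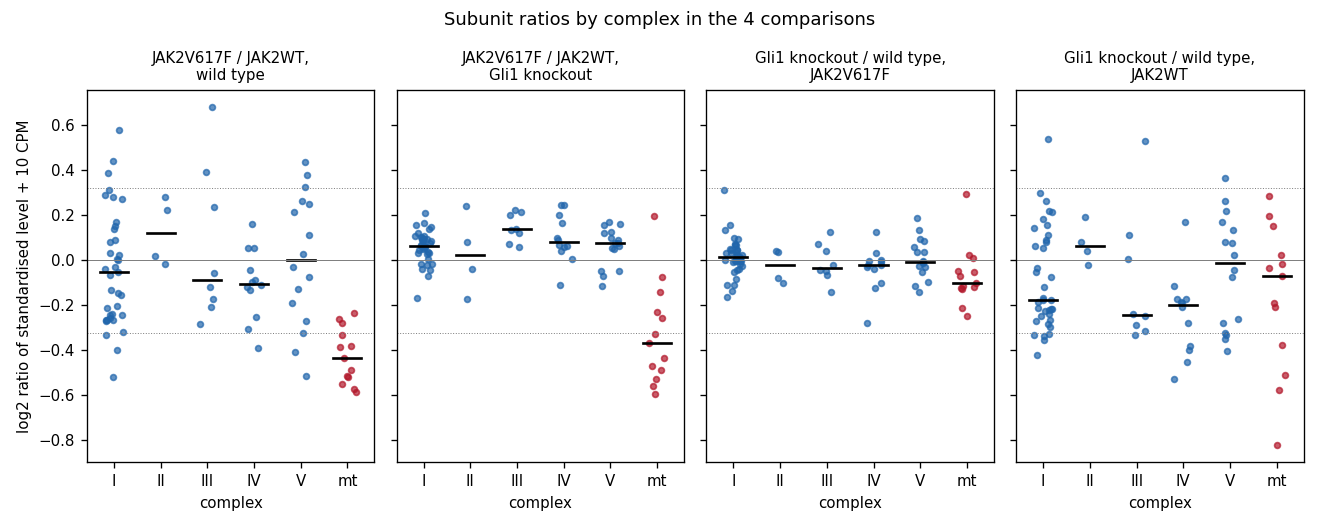
Log2 ratio of standardised level plus 10 CPM (vertical axis) for each measured subunit by complex in the 4 comparisons; red points (mt) are the 13 mitochondrially encoded subunits, bars are medians and dotted lines mark the limit of 25% higher or 20% lower. The nuclear members lie on both sides of 0, and spread widest in the comparisons that hold the wild type JAK2WT library. Their medians over all complexes are -0.05, 0.08, -0.00 and -0.17 from left to right. The mt medians lie at -0.44 and -0.37 for JAK2V617F.

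Complex II has no mitochondrially encoded part, and its 4 genes stayed within the limit in all 4 comparisons. Sdha, the flavoprotein that oxidises succinate, had 107, 106, 124 and 109 standardised CPM. Its highest value was in Gli1 knockout with JAK2WT. The membrane anchors Sdhc and Sdhd had 79.2, 80.5, 78.0 and 75.7 CPM and 121, 143, 124 and 132 CPM. Sdhb and Sdhd were higher in both JAK2V617F libraries than in either JAK2WT library, by log2 ratios of 0.28 and 0.22 in wild type and 0.24 and 0.08 in Gli1 knockout.

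The subunits encoded in mitochondrial DNA differed from the nuclear ones. Their standardised sum was 29933 CPM, 22663, 30219 and 22286, lower in both JAK2V617F libraries than in both JAK2WT libraries. Ratios of JAK2V617F over JAK2WT had a median of -0.44 in wild type, with 10 of 13 lower against 13.2% of all genes, and -0.37 in Gli1 knockout, with 8 of 13 lower against 1.98%. In HSC/MPP the sums were 30346, 24652, 30869 and 24157 CPM, and in granulocyte progenitors 27561, 18999, 29883 and 19375. Innate lymphoid cells had 36396, 25180, 28673 and 24278, and cluster 2 had 28612, 23773, 30826 and 22684. In each of these 4 classes both JAK2V617F values lay below both JAK2WT values. Elsewhere the fall was not uniform. Mesenchymal stromal-like cells in wild type had 30588 CPM with JAK2WT and 32957 with JAK2V617F, and cluster 4 in Gli1 knockout had 3779 and 19008. The remaining classes with at least 50 cells in both libraries of a genotype were lower with JAK2V617F. For the genotype comparisons the medians were -0.10 with JAK2V617F and -0.07 with JAK2WT. Mitochondrial UMIs were also the filter on cells, and 30.5%, 31.7%, 25.1% and 22.0% of barcodes were at or above 10%. With the limit at 20% the JAK2V617F medians were -0.77 and -0.25, and the genotype median with JAK2WT was -0.62.

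**Figure D4:**
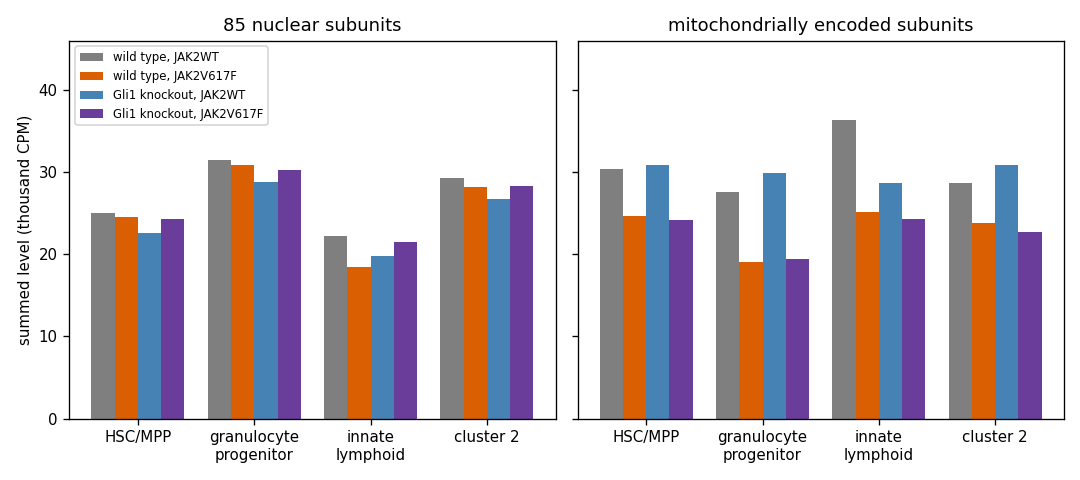
Summed CPM divided by 1000 (bars, from 0) of the 85 nuclear subunits (left) and the 13 mitochondrially encoded subunits (right) in the 4 matched classes, coloured by library. On the right both JAK2V617F bars are lower than both JAK2WT bars in each class, as in HSC/MPP with 24652 and 24157 against 30346 and 30869 CPM.

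Ratios of the nuclear members followed the annotated length of their main transcript in the 2 comparisons that hold the wild type JAK2WT library. Over 76 members with at least 50 CPM, Spearman's correlation of ratio with length was 0.65 for JAK2V617F in wild type and 0.68 for Gli1 knockout with JAK2WT. In the other 2 comparisons it was -0.15 (75 members) and -0.23 (76 members). Across other genes of that level it was -0.24, -0.31, -0.13 and -0.21 in the order in which the comparisons were described. These correlations are over genes, which share libraries and are not replicates. In wild type with JAK2V617F, 28 members under 700 bases had a median of -0.21, and 24 members of at least 1200 bases 0.23. With JAK2WT, the knockout ratios were -0.27 and 0.11 for the same length groups. Uqcrc2 at 1896 bases was among the long ones, and Atp5k at 371 and Ndufa3 at 515 among the short. The correlation held in each matched class, between 0.40 and 0.64 for the first comparison and between 0.48 and 0.68 for the other. It was 0.57 and 0.67 among cells with 5000 to 20000 UMIs, where only HSC/MPP had enough cells, and 0.61 and 0.63 with cells thinned to 1000 UMIs. Many short subunit genes have processed pseudogene copies, and reads they share may go uncounted; the part of depth, copies or library preparation in this pattern was not tested.

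**Figure D5:**
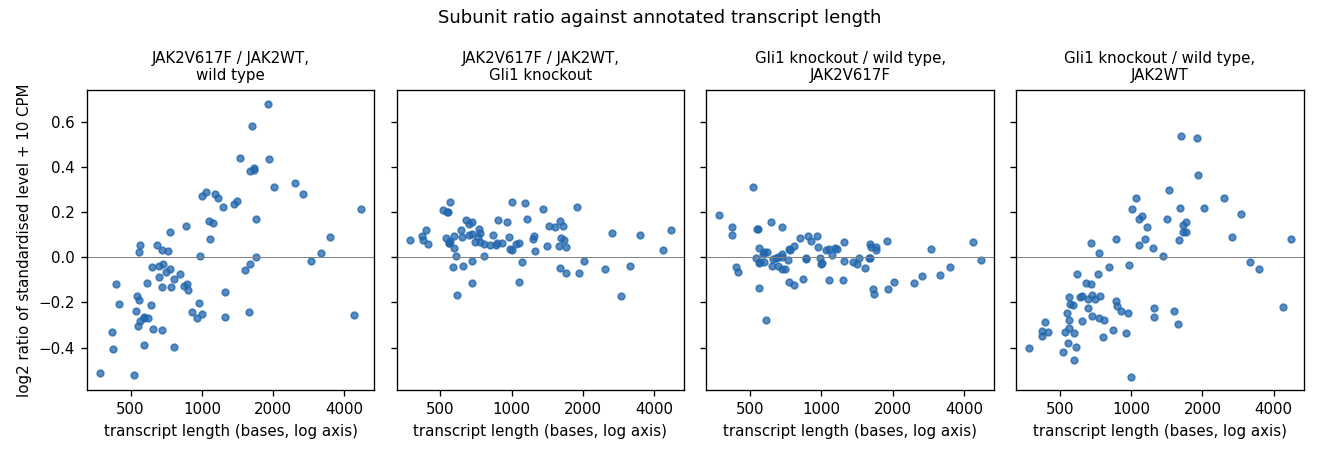
Log2 ratio of standardised level plus 10 CPM (vertical axis) against annotated transcript length in bases (log axis) for measured nuclear subunits in the 4 comparisons; each point is a gene. Points climb from left to right where the wild type JAK2WT library is the denominator, with Spearman correlations of 0.65 and 0.68.

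Ndufa1, Ndufb11 and Cox7b lie on the X chromosome. Ndufa1, an accessory subunit needed to build complex I, had 217, 170, 171 and 183 standardised CPM, and Ndufb11 had 347, 292, 293 and 307. The median of the 3 was -0.33 for Gli1 knockout with JAK2WT against -0.17 for 74 autosomal members. It was 0.07 against -0.00 with JAK2V617F. For JAK2V617F over JAK2WT it was -0.25 against -0.04 in wild type, where both libraries held Xist and almost no Y-linked UMIs, and 0.09 against 0.08 in Gli1 knockout. For JAK2V617F in wild type the 3 X-linked ratios lay from -0.33 to -0.24, beside a lower quartile of -0.24 over all members. What set these 3 genes apart from the autosomal median was not tested. Donor sex differed with genotype, and in the genotype comparisons its part cannot be told apart from that of Gli1.

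Other genes of mitochondrial energy production were set beside the subunits. In wild type, where 19.4% of all genes were higher and 13.2% lower, JAK2V617F over JAK2WT had a median of 0.23 for 77 mitochondrial ribosomal proteins, with 23 (29.9%) higher and 0 lower. It was 0.35 for 16 TCA cycle enzymes, 9 of them higher and 0 lower, and 0.13 for 42 assembly factors, 12 (28.6%) higher and 1 lower. In Gli1 knockout the medians were 0.12, 0.08 and 0.07, and no gene of the 3 lists passed the limit. The ADP/ATP carriers Slc25a5, with 571, 803, 688 and 784 CPM, and Slc25a4, with 158, 244, 212 and 261 CPM, were lowest in wild type with JAK2WT. Cyc1, the cytochrome c1 of complex III that the naming rule does not catch, had 150, 221, 182 and 213 CPM, and Cycs, cytochrome c itself, 341, 326, 330 and 403. Between genotypes with JAK2V617F, the medians of those 3 lists were -0.03, -0.04 and -0.01, and with JAK2WT 0.05, 0.24 and 0.04. S phase genes had medians of 0.30, 0.08, -0.02 and 0.28 in the order of the comparisons. G2 and M phase genes had 0.21, with 4 higher and 4 lower, then -0.08, 0.11 and 0.32, so the lists differed in sign in the second and the third. The part of the cell cycle in the subunit values was not tested.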

How the data were processed

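Droplet 3' single-cell RNA libraries of the 4 groups were analysed; the 4 hashing-tag libraries were not analysed here, so cells could not be assigned to mice. The authors deposited UMI counts for each gene in each barcode, made with Cell Ranger 4.0.0 on mm10, per the submitters' processing notes; Seurat 4.0.4 is named there without a role. Libraries held 12376, 5907, 7155 and 8762 barcodes and 72458173, 59165347, 84063880 and 114847114 UMIs. No doublets were removed in the values reported.

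Clustering used scanpy 1.11.5 and leidenalg 0.10.2 (Python 3.11.15, numpy 2.4.6, scipy 1.17.1, pandas 2.3.3), with 30 components, 15 neighbours and resolution 1.0. It took 2000 variable genes without the subunits, mitochondrial and Y-linked genes, Xist, Tsix and GFP. Other X-linked genes were not left out. For a name, a cluster had to score 1.0 or more on its markers, lead the next class by 0.5, show 3 markers at 50 CPM and hold no more markers of another class among its 10 leading genes; these limits were chosen with the data in view. Log2 ratios had 10 CPM added, and a gene was measured where 1 of the libraries reached 10 CPM. With 1 library per group there is no test, and the limit of 25% higher or 20% lower is a rule of size. Class weights were 32.9%, 33.5%, 14.2% and 19.4% for HSC/MPP, granulocyte progenitors, innate lymphoid cells and cluster 2. Named genes are the 3 highest and 3 lowest ratios per comparison among members with at least 50 CPM, the leader of each complex, complex II, isoform families, X-linked members and the extremes of spread over classes. A result that this rule names is not reported here. Members and lists were chosen with earlier results of these data known. Coordinates, lengths and chromosomes are from GENCODE M21 (GRCm38), promoters from RefSeq. Summing and ratios were tested on simulated data. A planned split by GFP was not made. Alternatives covered cell filters, doublets, clustering, weights, depth, totals, added CPM and limits.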

Additional observations from a re-analysis of the deposited data

How the results depend on the processing

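No paired analysis was possible because each group holds 1 library. All values here are median log2 ratios over the nuclear members unless named otherwise, and only medians that left the counting error are given singly. For JAK2V617F in wild type (-0.05), sums over all kept cells gave 0.11, equal class weights -0.084, leaving out granulocyte progenitors -0.081, leaving out innate lymphoid cells -0.033, the reduced total -0.12, centring on the median gene -0.10, the stricter cell filter -0.039, the 20% mitochondrial limit -0.021 and resolution 2.0 -0.078. Cox6a1 turned from -0.39 to 0.082 with sums over all kept cells. For JAK2V617F in Gli1 knockout (0.08), sums over all kept cells gave 0.14, leaving out granulocyte progenitors 0.088, the reduced total 0.049, 50 CPM added 0.066, resolution 0.5 0.068, resolution 2.0 0.060, cells of 5000 to 20000 UMIs 0.10 and thinning 0.049. For genotype with JAK2V617F (-0.00), sums over all kept cells gave -0.13, equal weights 0.024, leaving out HSC/MPP 0.0088, granulocyte progenitors 0.031 or innate lymphoid cells -0.026, centring 0.0084, the stricter filter -0.031, resolution 0.5 -0.012, resolution 2.0 -0.017 and cells of 5000 to 20000 UMIs -0.036. For genotype with JAK2WT (-0.17), sums over all kept cells gave -0.23, leaving out HSC/MPP -0.16, the reduced total -0.20, centring -0.21, 50 CPM added -0.16, the 20% limit -0.11, resolution 0.5 -0.18, cells of 5000 to 20000 UMIs -0.20 and thinning -0.087. The cause of these shifts was not tested. The ratio of the highest to the lowest class level was 3.58, and 2.46 with the reduced total, which leaves out mitochondrial, ribosomal protein, haemoglobin and immunoglobulin genes. Counts of members past the limit ranged from 1 to 20 higher and 0 to 15 lower (8 and 6 in the report) for JAK2V617F in wild type, 0 to 1 in each direction for JAK2V617F in Gli1 knockout, 0 to 1 higher and 0 to 16 lower for genotype with JAK2V617F, and 0 to 5 higher and 0 to 25 lower (3 and 13) for genotype with JAK2WT. The share of all genes past the limit was not taken under these alternatives. Among cells of 5000 to 20000 UMIs only HSC/MPP had 100 cells in every library. The planned split by GFP was not run. Depth limits the rare isoforms: members under 10 CPM after standardisation are given as UMI counts, other than Cox6a2 and the class means of Ndufa4l2 and Cox4i2. The ranges of members over classes on the reduced total, an alternative chosen after seeing the data, stand beside the values in the report.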
